A study of Mus musculus with 3 samples.

Results

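The major histocompatibility complex of the mouse, named H2, lies on chromosome 17, and its windows were taken by position alone: every listed 500 bp window of chromosome 17 that started between 33.5 and 38.5 Mb on build mm10. This gave 517 windows, beside 6115 windows on the rest of chromosome 17 and 143198 windows in the whole table. The mice were C57BL/6, and DNA of their cauda epididymal sperm was measured by sequencing of DNA fragments enriched with the methyl-CpG-binding protein MBD2. There were 3 libraries, with 1 library per group, from mice labelled as 14 weeks old. The vehicle control received saline, the low dose group received doxorubicin (DXR, an anthracycline that intercalates into DNA and poisons topoisomerase II) at 0.02 mg/kg, and the high dose group received it at 0.2 mg/kg. Injections were intraperitoneal, 2 times a week for 5 weeks between 8 and 13 weeks of age, and sperm was taken 4 days after the last one. The number of mice behind a library is not stated in the labels.

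As background, the complex holds class I genes, whose products show peptides from inside the cell to cytotoxic T cells, and class II genes, whose products show peptides from outside the cell to helper T cells. Between them lies the class III segment, a compact stretch of genes of many functions, among them complement components and tumour necrosis factor. Beyond the class I genes follows a cluster of olfactory receptor genes. DNA of mature sperm is methylated at most CpG sites outside CpG islands. MBD enrichment recovers fragments that carry methylated CpGs, and recovery rises with their number but not in strict proportion.

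The value used for a window was the deposited RMS, a methylation score whose abbreviation the file headers do not spell out. A change was log2((treated RMS + 0.766)/(control RMS + 0.766)), and a window was called higher where its change reached 1 and lower where it reached -1. The table was a filtered list: no window had RMS at or under 1 in all 3 libraries, so a gene without a listed window was low in all 3 libraries or was not measurable, and the table does not tell which. With 1 library per group no difference has a replicate check, no test was possible, and intervals over windows do not cover the spread between animals. Genes at imprinted loci known to be methylated in sperm had listed windows in 5 of 5 cases, with highest control RMS between 2.67 and 5.58. Genes at imprinted loci whose control region is known to be unmethylated in sperm had them in 3 of 8 cases, with highest control RMS between 1.33 and 3.14. Among these, Peg3 reached 3.14 in the control, 3.87 with the low dose and 5.67 with the high dose. The last value was near those of H19 (5.65) and Rasgrf1 (5.73) in the high dose library, so the check did not separate the kinds of locus fully. Windows were taken by gene and not by the control region of each locus, so these values do not show the methylation of those regions.

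Promoters show where in the complex the enrichment was and was not seen, so 4 of them are printed here. Promoters are from RefSeq on GRCm38.p6, 300 bases around an annotated start, with each CG in capitals. The motif CG reads the same on both strands, and at least 1 was present in 93.2% of the 265 promoters of the region, in 95.2% of those of chromosome 17 and in 94.6% of all 32851 promoters of the same length. The promoters of Apom (chr17:35131752-35132051, minus strand, 9 CpGs) and Vwa7 (chr17:35016329-35016628, plus strand, 12 CpGs) overlapped a listed window. Those of H2-K1 (chr17:34000284-34000583, minus strand, 15 CpGs) and Tap1 (chr17:34187306-34187605, plus strand, 15 CpGs) did not. The stretches of Apom and Tap1 lie mostly upstream of the RefSeq gene. That of Vwa7 lies mostly inside its gene and that of H2-K1 wholly inside.
Apom: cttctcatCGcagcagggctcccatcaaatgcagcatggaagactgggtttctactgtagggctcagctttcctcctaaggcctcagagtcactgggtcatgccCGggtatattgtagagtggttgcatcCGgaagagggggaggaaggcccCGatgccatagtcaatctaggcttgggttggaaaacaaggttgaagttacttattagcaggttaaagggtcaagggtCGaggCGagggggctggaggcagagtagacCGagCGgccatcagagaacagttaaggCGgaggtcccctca
Vwa7: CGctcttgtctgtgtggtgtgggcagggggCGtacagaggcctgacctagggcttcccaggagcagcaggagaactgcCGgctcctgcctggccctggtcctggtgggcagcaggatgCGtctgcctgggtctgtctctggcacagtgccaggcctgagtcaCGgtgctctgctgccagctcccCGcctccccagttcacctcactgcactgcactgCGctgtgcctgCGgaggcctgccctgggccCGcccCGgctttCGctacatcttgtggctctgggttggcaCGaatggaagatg
H2-K1: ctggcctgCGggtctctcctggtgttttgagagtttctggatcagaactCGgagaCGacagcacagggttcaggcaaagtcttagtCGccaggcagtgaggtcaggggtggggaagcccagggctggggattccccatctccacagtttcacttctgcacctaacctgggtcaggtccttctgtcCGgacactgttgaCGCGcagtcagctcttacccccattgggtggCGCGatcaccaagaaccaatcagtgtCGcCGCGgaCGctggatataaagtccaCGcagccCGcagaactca
Tap1: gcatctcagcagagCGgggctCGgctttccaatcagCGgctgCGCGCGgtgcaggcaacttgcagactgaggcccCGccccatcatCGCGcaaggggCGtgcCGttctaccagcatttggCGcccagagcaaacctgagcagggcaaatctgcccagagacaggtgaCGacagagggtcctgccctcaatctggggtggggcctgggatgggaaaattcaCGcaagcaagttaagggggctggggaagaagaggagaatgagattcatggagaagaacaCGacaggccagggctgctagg

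Few promoters of the complex had a listed window. Of 265 promoters of 215 genes, 8 overlapped one, which is 3.02%, beside 5.14% of 1361 promoters on the rest of chromosome 17. Among the 88 promoters with 16 or more CpGs, 0 did, beside 0.207% of 484 on the rest of the chromosome. Among the 47 promoters with 9 to 15 CpGs, 5 did, beside 22 of 190. The promoter of Vwa7, a gene for a protein with a von Willebrand factor A domain, overlapped 2 windows with control RMS of 1.88 and 1.05. The window with 1.88 is annotated to exons of the neighbouring gene Vars, which ends at 35016329, and lies mostly over that gene. The promoter of Tnf, the cytokine tumour necrosis factor, shared 43 bases with a window that had RMS of 1.30 in the control and low dose libraries and 1.70 at the high dose. Ly6g6d, a member of the lymphocyte antigen 6 family, had a listed window over 2 of its 3 RefSeq promoters.

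Listed windows were dense in the first part of the region and sparse in the last. The 5 Mb held 103.4 windows per Mb, beside 70.5 on the rest of chromosome 17. By 500 kb bin the counts ran 68, 58, 123, 89, 68, 47, 16, 11, 17 and 20, against a median of 25 and a range of 3 to 163 over bins on the rest of the chromosome. The bin with 123 windows, from 34500001 to 35000000, holds class III genes, among them Notch4, Tnxb, C4a and Ehmt2. The first 3 Mb held 453 windows (151 per Mb) and the last 2 Mb held 64 (32 per Mb). In RefSeq, 46 of the 223 protein-coding genes of the region are olfactory receptors, all in the last 3 bins.

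**Figure D1:**
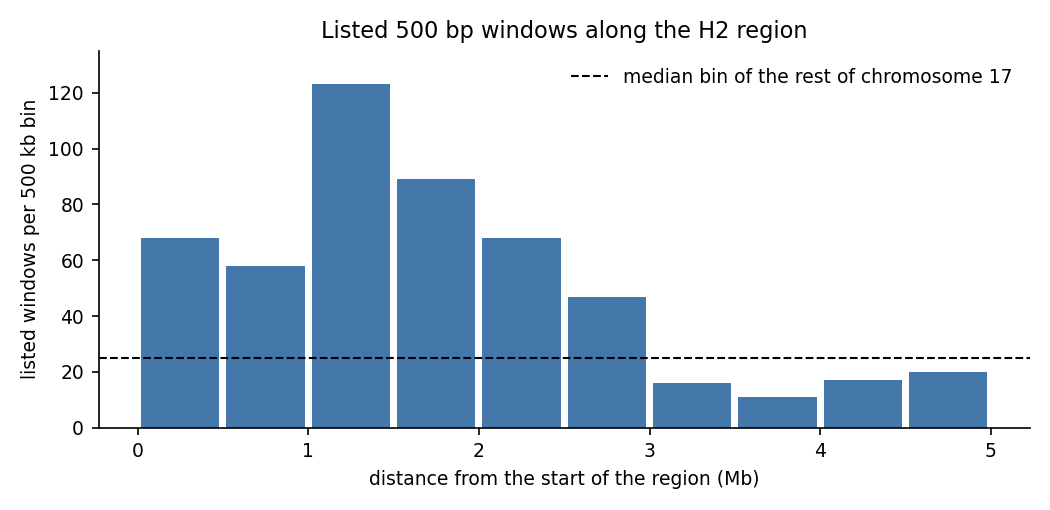
Number of listed 500 bp windows in each 500 kb bin against distance from the start of the region in Mb; the dashed line is the median bin of the rest of chromosome 17. The first 6 bins hold 47 to 123 windows and the last 4 hold 11 to 20, below the line at 25.

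The windows lay in exons more often than elsewhere on the chromosome. Of the 517, 308 were exonic (59.6%, beside 28.7% on the rest of chromosome 17), 66 were intronic (12.8%, beside 33.1%) and 137 were intergenic (26.5%, beside 37.6%). Genes of the region are short, with a median length of 4.62 kb against 17.8 kb on the rest of the chromosome. Summed gene by gene, gene bodies of the region came to 1731 kb and 333 windows, and those on the rest of the chromosome to 37246 kb and 3751 windows. In these sums, windows and bases shared by overlapping genes count more than once. The 517 windows formed 286 runs of adjacent windows, of which 162 were single windows. The longest run had 10 windows, from 34755501 to 34760500, and carried no gene annotation.

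Histocompatibility genes themselves were mostly without a listed window. Of 34 RefSeq H2 genes, 3 had one over the gene body, namely H2-DMa, H2-Q6 and H2-T24; H2-Ke6, which carries the name but encodes no histocompatibility antigen, had none and was counted with the other genes. This compares with 77 of 143 other genes of the region that are not olfactory receptors (53.8%). Of the 46 olfactory receptor genes, 1 had one over its RefSeq gene body. Median gene length was 0.963 kb for olfactory receptors, 4.53 kb for H2 genes and 6.68 kb for the other genes. A shorter gene spans fewer possible windows, so these shares are not alike in length. Per 100 kb of gene body, listed windows numbered 0.826, 6.80 and 22.7 in the same order. The Ensembl annotation in the table, used for windows elsewhere in the text, differs in gene extent and puts other windows in introns or flanks of olfactory receptors. The classical class I genes H2-K1 and H2-D1 and the class II genes H2-Aa, H2-Ab1 and H2-Eb1 had none. H2 genes and olfactory receptors have near-identical copies, among which reads can be split or dropped, and how the authors handled such reads is not stated in the labels or headers.

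The level of methylation signal in the region was close to that of the rest of the chromosome in each library. Median RMS was 1.86 in the control, 1.73 with the low dose and 1.62 with the high dose, beside 1.80, 1.66 and 1.54 on the rest of chromosome 17. RMS was above 1 in 478 of the 517 windows in the control, in 417 at the low dose and in 388 at the high dose. All 3 libraries were above 1 in 349 windows (67.5%, beside 64.4% on the rest of chromosome 17). The control alone was above 1 in 76 windows, the low dose alone in 16 and the high dose alone in 8. Over all 143198 windows these counts were 20435, 5937 and 2971, in the same order, so this is not particular to the region. Over the 517 windows, which share libraries and CpG content, the correlation of log2(RMS + 0.766) was 0.82 between control and low dose, 0.83 between control and high dose and 0.91 between the doses.

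Of the 10 windows with the highest mean RMS, none was annotated to an H2 gene. Class I genes held only 18 of the 517 windows and class II genes other than Btnl2 held 5, so their absence from 10 windows says little. Tnxb, the extracellular matrix protein tenascin-X, had 20 windows with control RMS from 0.884 to 9.49. Its window at 34718501 to 34719000 (exonic) had RMS of 9.49 in the control, 7.37 with the low dose and 7.70 with the high dose. Prrc2a, a proline-rich RNA-associated protein, reached 6.06, 8.20 and 7.66 at 35161501 to 35162000. Dhx16, an RNA helicase of pre-mRNA splicing, had 6 adjacent windows from 35881001 to 35884000, with 6.56, 7.67 and 8.90 in the window from 35881501. Kifc1, a minus-end kinesin with a role in spermatid shaping, had 7.90, 6.23 and 7.84 at 33883001 to 33883500. Vars2, the mitochondrial valyl-tRNA synthetase, had 5.75, 7.38 and 6.58 at 35660001 to 35660500. The window with the highest mean RMS lay in an olfactory receptor intron, with 7.54, 9.0 and 10.9. The treated libraries were above the control in some of these windows and below it in others.

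At the high dose, 13 windows of the region were lower than in the control and 0 were higher. Apom, Notch4, C4a, Ager, Tap1, Daxx and Dhx16 held most of them. Most of the 13, among them the windows in Apom, Tap1, Ager, Daxx and C4a, had RMS above 1 in the control alone. Such windows were listed only through the control, so their treated values could only be lower. The part of this filter in the counts was not tested. The 13 are 2.51% of the windows (exact 95% binomial interval over windows 1.35 to 4.26), beside 2.52% lower over all windows of the table and 2.93% on the rest of chromosome 17, so the share was near the background. The 0 higher windows allow a share of up to 0.711%, beside 0.0824% over all windows. The median change was -0.08 (95% interval over windows -0.11 to -0.04), with an SD of 0.40, beside -0.13 (-0.14 to -0.11) on the rest of the chromosome and -0.10 over all windows. The count depends on settings: it was 0 with the pseudocount multiplied by 3, 43 with it divided by 3, 1 (with 2 higher) after quantile normalization and 0 (with 3 higher) after the trend in read density was subtracted. Quantile normalization, division by library medians and subtraction of the trend moved the median of all windows by 0.11, 0.14 and 0.10, and the median of the region was then above 0.

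The lower windows had low read density. The control RPM of the 13 ran from 0.813 to 2.55 with a median of 1.33, and 12 were below the median of the library, 2.42. In the lowest of 10 RPM classes the median change was -0.56 in the region and -0.56 on the rest of the chromosome. In the highest class it was 0.17 and 0.09. The part of read density in the lower windows was not tested.

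Apom, apolipoprotein M of the high-density lipoprotein particle, had the largest change. Its 1 window (35131501 to 35132000, exon 1), which covers 249 bases of the promoter printed above, had RMS of 1.11 in the control, 0.849 with the low dose and 0 with the high dose, a change of -1.29. Against the low dose the change was -1.08, the 1 window of the region lower in that comparison.

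Notch4, a receptor of the Notch family known from endothelium, had 3 lower windows among 6. In exons 22 and 23 the window from 34583001 had RMS of 3.73 in the control, 2.23 with the low dose and 1.32 with the high dose, and the next one had 2.15, 1.65 and 0.632. In exon 6 the window from 34568501 had 1.23, 0.285 and 0.206. Changes at the high dose were -1.11, -1.06 and -1.04, and the median over the 6 windows was -0.999. The windows in exon 4 (1.16, 0.927 and 1.18) and at 34584501 (1.99, 1.16 and 1.72) had high dose changes of 0.02 and -0.15. Agpat1, an acyltransferase of phospholipid synthesis that lies beyond Pbx2 and Ager, had 4 windows between -0.84 and -0.30, none past the limit. Pbx2, which lies closer to Notch4, had 5 windows between -0.25 and 0.35 at the high dose, with a median of 0.10.

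**Figure D2:**
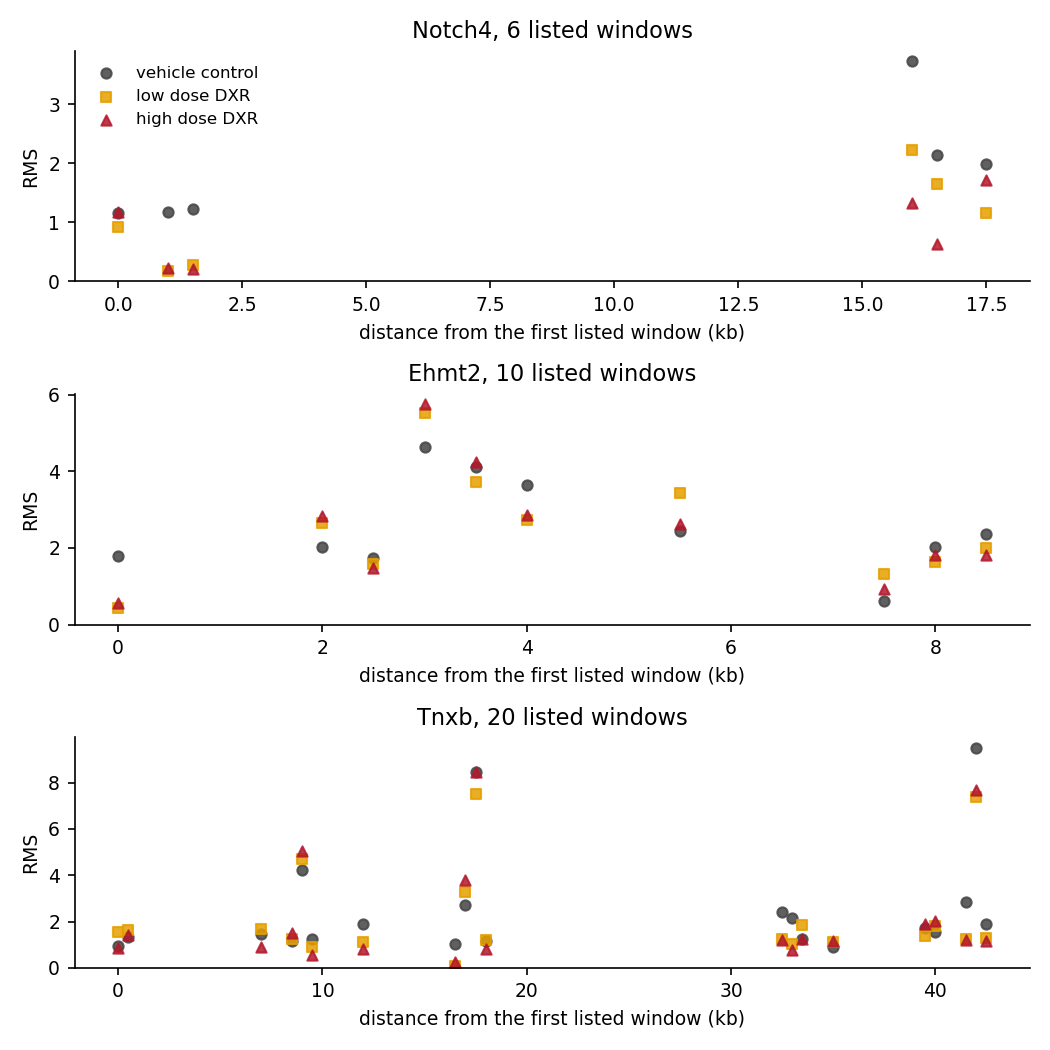
RMS of each listed window of Notch4, Ehmt2 and Tnxb in the 3 libraries (1 point per library) against distance from the first listed window in kb. In Notch4 the control point is highest in 5 of 6 windows, with 3.73 at most; in Ehmt2 and Tnxb the order of the libraries differs from window to window.

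The other 9 lower windows comprised 2 in C4a and 1 in Tap1, given with their gene groups below, 1 each in Ager, Dhx16, Daxx and Col11a2, and 2 without a gene annotation. Ager, the receptor for advanced glycation end products, had RMS of 1.86, 0.414 and 0.495 in its window from 34600001 (exons 7 and 8); with changes of -1.15 (low dose) and -1.06 (high dose) it was the 1 window of the region lower at both, in comparisons that share the control library. Dhx16 had 1.74, 1.28 and 0.381 in exon 13 (35887001), a change of -1.13, while its windows in exon 2 were higher in the treated libraries (3.39, 4.49 and 5.47 at 35881001, a change of 0.58, within the limit). Daxx, a chaperone of histone H3.3, had 1.39, 0.395 and 0.277 at 33915001, a change of -1.05. Col11a2, a fibrillar collagen chain, had 1.19, 0.717 and 0.201 at 34050501, a change of -1.01; it was named after its values were seen. Of 2 lower windows without a gene annotation, also named after their values were seen, the one from 34130501 (1.11, 0.740 and 0.045) lies within the RefSeq gene H2-DMa. The other, from 34759001 (2.12, 1.35 and 0.530), lies in the longest run, 15.1 kb beyond C4b. Just inside the limit, Psmb8 stood at -0.998, exon 5 of Notch4 at -0.96 and 2 intergenic windows at -0.9996 and -0.96. In the other direction, the largest high dose change in the region was 0.98, also just inside the limit.

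At the low dose, 5 windows were lower and 0 were higher, in C2, Ager, Tnxb, Ehmt2 and Notch4. They are 0.967% of the windows (exact 95% interval 0.315 to 2.24), beside 1.24% lower and 0.120% higher over all windows and 1.36% lower on the rest of chromosome 17, again near the background. The median change was -0.07 (-0.10 to -0.03), beside -0.07 on the rest of the chromosome. The largest change upward in the region was 0.95, just inside the limit. C2, complement component 2, had RMS of 4.16 in the control, 1.41 with the low dose and 2.60 with the high dose in exon 4 (34877001), changes of -1.17 and -0.55. Tnxb had 1.05, 0.074 and 0.255 in an intron (34693001), and Ehmt2, a histone H3 lysine 9 methyltransferase, had 1.79, 0.443 and 0.561 in exons 4 and 5 (34903001). Notch4 had 1.17, 0.173 and 0.232 in exon 5 (34568001). All of these windows but the one in C2 had RMS above 1 in the control alone, so they were listed only through the control.

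All 5 windows lower at the low dose and 7 of the 13 lower at the high dose lay between 34500001 and 35000000. That bin held 123 windows, 23.8% of the region. The bin is pointed out because it held the most lower windows, so its values are a description. Within it 5.69% of windows were lower at the high dose and 4.07% at the low dose, beside 2.52% and 1.24% over all windows, and its median change at the high dose was -0.19 (-0.30 to -0.10). The bin before it, from 34000001 to 34500000, had nearly the same share at the high dose (3 of 58 windows, 5.17%), with a median of -0.16, and 0 lower windows at the low dose. Both comparisons use the same control library.

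**Figure D3:**
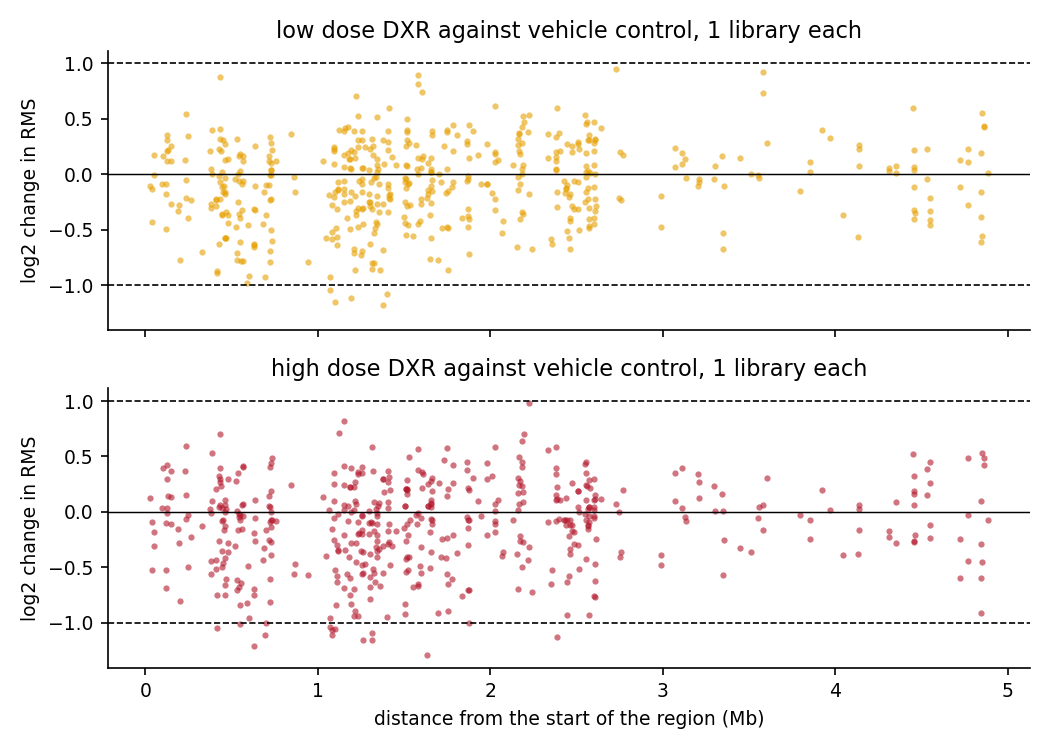
Change of each window in log2 units against distance from the start of the region in Mb, for the low dose (upper panel) and the high dose (lower panel) against the vehicle control; dashed lines mark changes of 1 and -1. Points below -1 lie in the first 3 Mb, 5 in the upper panel and 13 in the lower, and none lie above 1.

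Between the doses, 0 windows were higher at the high dose and 1, in Apom, was lower (0.193%, beside 0.0293% higher and 0.330% lower over all windows). The median change was -0.02 (-0.05 to 0.01), beside -0.05 on the rest of the chromosome. The largest gene-annotated value upward was 0.85 in Col11a2 (34065501), followed by Ring1, a Polycomb ubiquitin ligase, with 2.89, 1.86 and 3.66 at 34023001 (0.75).

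Several genes had windows with more signal in the treated libraries, all within the limit. Atf6b, a transcription factor of the unfolded protein response, had RMS of 2.14, 3.05 and 4.38 in exon 7 (34650501), a high dose change of 0.82. Its 8 windows ran from -0.69 to 0.82, with a median of 0.04. Ddr1, a collagen receptor kinase, had 1.39, 2.23 and 2.75 at 35692501 (0.70), among 9 windows from -0.49 to 0.70 with a median of 0.24. Rgl2, a guanine nucleotide exchange factor for Ral, had 1.71, 2.52 and 3.25 at 33933501 (0.70), and all 6 of its windows were above 0 at the high dose, with a median of 0.28. Ly6g6f had 1.20, 2.90 and 2.14 at 35080001, a low dose change of 0.90. Its 4 windows ran from -0.45 to 0.90 at the low dose, with a median of 0.48, and had a median of -0.14 at the high dose.

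By gene group, class I genes had 3 of 33 listed members measured (H2-Bl, H2-Q6 and H2-T24) in 18 windows. Their median change was 0.01 at the high dose and -0.03 at the low dose, beside -0.10 and -0.05 over all windows, with 0 windows past the limit. Over all windows 2.52% were lower at the high dose and 1.24% at the low dose. Counts of 0 to 2 in groups with few windows, here and below, therefore do not tell the groups apart. H2-Q6 had 2.53, 2.96 and 2.76 in exon 6, and H2-T24 had 2.81, 2.64 and 3.30 in an intron. H2-Bl had 11 windows, which mostly overlap another gene, from 5.82, 5.30 and 5.31 at 36069001 to a change of -0.93 at 36069501 (3.70, 2.86 and 1.58).

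Class II genes had 4 of 12 members measured in 7 windows, with medians of -0.26 at the high dose and -0.10 at the low dose and 0 past the limit. In RefSeq, H2-DMa extends further and also covers the windows from 34128501, 34129001, 34130501 and 34131001. These have no gene annotation in the table and are not among the 7. Their changes were -0.70, -0.75, -1.21 and -0.19 at the high dose, the third past the limit. At the low dose they were -0.64, -0.63, -0.32 and -0.65. H2-DMa, which loads peptides onto class II molecules, had 2.999, 3.73 and 3.30 in exons 1 and 2, and 2 further windows with 1.11, 0.735 and 1.04 at 34137501 and 2.24, 2.03 and 1.74 at 34138001. H2-Oa, a modulator of that loading step, had 1.46, 0.851 and 0.814 in a window downstream of the gene, changes of -0.49 and -0.46 at the high and low dose. H2-Ea-ps, a class II pseudogene, had 1.34, 1.95 and 1.73. Btnl2, a butyrophilin-like inhibitor of T cells rather than a class II molecule, had 1.48, 1.44 and 0.761 in exons 5 and 6. Without Btnl2 the medians over 5 windows were -0.06 and -0.10.

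Antigen processing genes had 4 of 5 members measured in 8 windows, with medians of -0.29 at the high dose and -0.26 at the low dose. Lower windows numbered 1 at the high dose (12.5%, beside 2.52% over all windows) and 0 at the low dose. Tap1, a subunit of the peptide transporter, was the 1 lower window at the high dose, with 1.44, 0.397 and 0.260 at 34191001, a change of -1.11; this window lies within the gene, away from the promoter printed above. Psmb8 and Psmb9 are subunits of the immunoproteasome: Psmb8 had 3.95, 2.89 and 1.59 at 34200501, and Psmb9 had 1.32, 1.11 and 0.898. Tapbp, the peptide loading factor tapasin, had 4.66, 2.74 and 3.77 at 33926001 but 1.83, 2.28 and 2.48 at 33925001 and 3.37, 3.32 and 3.48 at 33925501, and its median at the high dose was 0.04.

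Complement genes had 4 of 4 members measured in 19 windows, with medians of -0.10 and -0.07. C4a had 2 lower windows at the high dose, with 1.63, 0.606 and 0.310 at 34816001 (-1.15) and 1.74, 0.627 and 0.414 at 34814001 (-1.09), but 2.56, 3.39 and 4.21 at 34811501 (0.58). C4b had 2.75, 1.77 and 1.06 in exon 28 (-0.94). C4a and C4b are near-identical copies, and the assignment of their reads is uncertain; so is that of Tnxb and Cyp21a1, which lie in the same duplication.

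Tumour necrosis factor and inflammation genes had 2 of 8 members measured in 3 windows, with 0 past the limit and medians of 0.26 and 0.00. Tnf had 1.56, 0.595 and 0.466 in exon 4 (-0.91), opposite in sign to its exon 1. Heat shock genes had 1 of 4 members, Bag6, a chaperone needed in male germ cells, with 4.19, 3.73 and 4.39 at 35140501. Medians were 0.06 and -0.14, with 0 past the limit. These values are those of Bag6 alone, since Hspa1a, Hspa1b and Hspa1l had no listed window over their gene bodies. The same 3 Bag6 windows are counted again among the meiosis and spermatid genes below. Class III genes of other function had 30 of 45 members measured in 140 windows, with medians of -0.11 and -0.10, 5 windows lower at the high dose (3.57%, beside 2.52% over all windows) and 4 at the low dose (2.86%, beside 1.24%); a few windows make up each share.

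Chromatin and transcription regulators had 11 of 23 members measured in 35 windows, with medians of 0.09 at the high dose and -0.12 at the low dose. In this group 1 window was lower at the high dose (Daxx) and 1 at the low dose (Ehmt2). Each is 2.86% of the 35, beside 2.52% and 1.24% over all windows. The list holds Rgl2, which is no such regulator; without it the medians over 29 windows were -0.11 and -0.18, so the sign at the high dose rested on Rgl2. Ehmt2 had 4.64, 5.52 and 5.76 in its strongest window, and Rxrb, a retinoid X receptor, had 2.82, 2.83 and 3.80. Meiosis and spermatid genes had 5 of 8 members measured in 14 windows, with medians of 0.02 and 0.03 and 0 past the limit. Msh5, a meiotic crossover protein, had 2.30, 2.96 and 3.55 at 35031001 (0.50). Without Tubb5, a general tubulin, their medians over 12 windows were 0.02 and -0.04. Tripartite motif genes had 2 of 7 members in 6 windows, with medians of -0.12 and -0.17, and butyrophilin-like genes had 1 of 6, Btnl7, with 2.18, 1.21 and 1.47; 0 windows of either were past the limit.

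**Figure D4:**
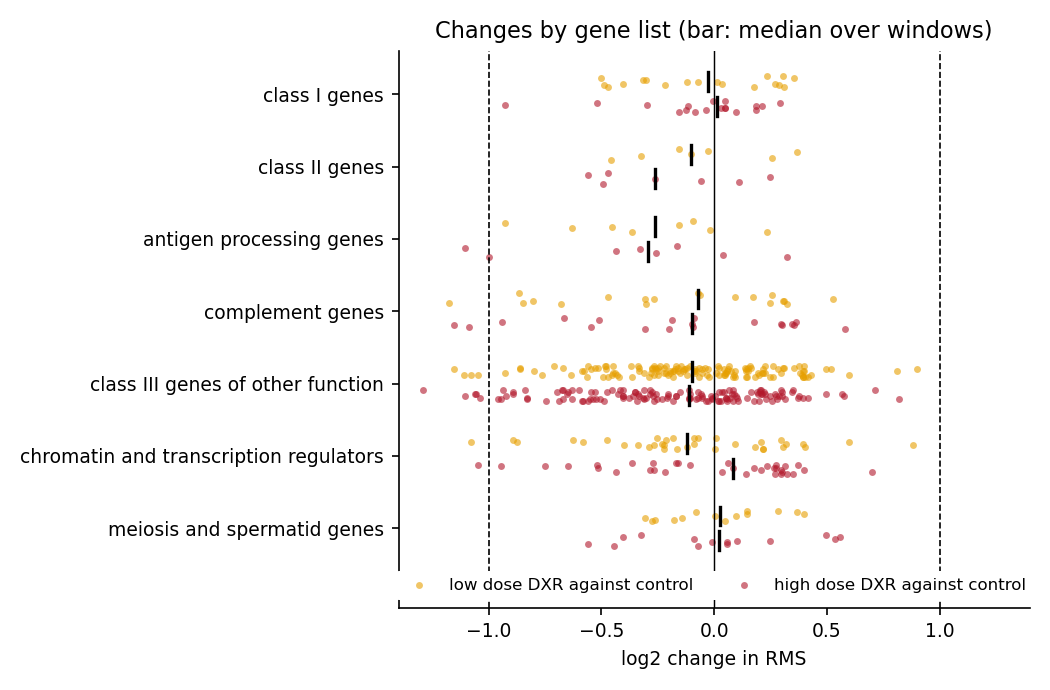
Change in log2 units of each listed window (points) by gene group, for the low dose and the high dose against the vehicle control; black bars are medians over windows and dashed lines mark 1 and -1. Windows below -1 occur in the antigen processing, complement, class III and chromatin groups, and none lie above 1.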

How the data were processed

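The authors deposited 1 table of 500 bp windows for the 3 libraries. RPM, per the file headers, is the read density of a window that the authors scaled to the size of the library. RMS and AMS are deposited scores of methylation that the headers do not define, and RMS divided by AMS, called the factor, is 1 value per window. The deposited ratio of low dose to control RMS was not used here. Windows were annotated to Ensembl transcripts dated 2013 (month 4, day 3) with a reach of 500 bp, per the file headers, on build mm10 (per the submitters' processing notes). Which aligner and read filters were used was not given in the sources used here. Read numbers per window are unknown, so no counting interval was computed.

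The table listed a window once per transcript; the 1551 lines of the region gave 517 windows. The pseudocount of 0.766 was the 10th percentile of nonzero RMS in the table, which understates changes of low windows. Medians carry 95% order-statistic intervals and shares exact binomial intervals, over windows only. The calculation was tested on simulated data, with large changes planted in windows of high control RMS. Most windows called here had lower control RMS, so that check does not cover them. RefSeq genes and promoters were those of GRCm38.p6. Python 3.11.15, pandas 2.3.3, numpy 2.4.6, SciPy 1.17.1 and matplotlib 3.10.9 were used.

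Genes were named by rule: in each comparison, of gene-annotated windows whose larger RMS was at least 1.68 (the median of values above 0), the 10 genes furthest up and the 10 furthest down were eligible; so were list genes past the limit, up to 4 further members per list, the 10 windows of highest mean RMS and windows past the limit at both doses. Olfactory receptors, predicted genes, RIKEN clones and small RNAs were counted and not named, and 1 gene symbol turned into a date was left out. The members and gene lists were chosen with earlier results of these data known. Alternatives covered the pseudocount, scaling, the trend in read density and factor, RPM in place of RMS, and a filter. Added after seeing the data were runs without duplicated genes and list medians without Btnl2, Rgl2 and Tubb5, whose known roles do not match the names of their lists; the lists themselves were kept as first written.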

Additional observations from a re-analysis of the deposited data

How the results depend on the processing

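The difference between the median change of the region and that of the rest of chromosome 17 was 0.0499 at the high dose (0.0288 to 0.0627 over alternatives), 0.0013 at the low dose (0.0007 to 0.0187) and 0.0335 between the doses (0.0237 to 0.0420). The half-width of the 95% interval over windows of the region was 0.0350, 0.0389 and 0.0277, so the low dose difference is within it, and so is the lowest high dose value, 0.0288 under the RMS filter, with a half-width of 0.0396. Counts of windows past the limit moved. With the pseudocount multiplied by 3, 0 windows were lower in all 3 comparisons. With it divided by 3, 43 were lower and 2 higher at the high dose, 28 lower and 7 higher at the low dose, and 15 lower and 2 higher between the doses. Quantile normalization gave 1 lower and 2 higher at the high dose, 2 lower and 5 higher at the low dose, and 0 lower between the doses. Division by library medians gave 6 lower and 1 higher at the high dose. With the trend in RPM and factor subtracted, 0 were lower and 3 higher at the high dose, 1 lower and 5 higher at the low dose, and 0 lower between the doses. RPM in place of RMS gave 8 lower at the high dose and 2 higher at the low dose. Among the 349 windows with RMS above 1 in all 3 libraries, 1 was lower at each dose and 0 between the doses; fewer windows enter there by construction. Otherwise the cause was not tested. Of the 13 windows lower at the high dose, 1 was still past the limit with quantile normalization, 6 were with values divided by library medians and 0 with the trend subtracted. Without the 74 windows of duplicated genes, chosen after seeing the data, 11, 4 and 1 were lower. No paired analysis was possible because each group had 1 library. The unknown read number limits each window of low RPM.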
